A study of Mus musculus with 16 samples.

Results

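The 10 genes described here encode secreted factors, receptors and an enzyme that govern the growth and stability of capillaries: Vegfa, Vegfb, Kdr, Flt1, Angpt1, Angpt2, Tek, Thbs1, Apln and Nos3. They were taken by gene symbol from the deposited expression table, in which each of the 10 had 1 entry among 23970 gene symbols. Of these, 9 had a mean of at least 0.5 FPKM (the authors' count of fragments per kilobase of transcript, relative to library size) over the 16 libraries and were tested together with all 11256 genes above that level. Apln lay below it.

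The values came from quadriceps of 16 male C57BL/6NTac mice, aged 16 weeks, each sequenced as a separate library. CON mice ate a diet with 10% of its energy from fat and HFD mice a diet with 60% for 10 weeks. Mice of CON-pre and HFD-pre had not run, and those of CON-post and HFD-post had run on a treadmill to exhaustion 3 h before the muscle was taken, with 4 mice in each of the 4 groups. No genetic change was named for any group, and all mice had first been accustomed to the treadmill and fasted for 3 h. The methods give the pre mice the same fasting period as the post mice, and the post mice had water but no food between running and sampling. When the pre muscle was taken relative to that period is not given in the sources used here. Different mice gave the pre and the post muscle, so no mouse was its own control.

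Capillaries in skeletal muscle are built and maintained through a pair of signalling systems. In the first, VEGF released by myofibres and other cells binds receptors on endothelial cells, where Kdr carries most of the growth signal and Flt1, in its soluble form, also acts as a decoy that holds VEGF back. In the second, Angpt1 from mural cells activates the endothelial receptor Tek and keeps vessels quiet, while Angpt2 from endothelial cells opposes it in most settings and loosens vessels for remodelling. Thbs1 encodes thrombospondin, a matrix protein that inhibits angiogenesis. Apln encodes the peptide apelin, and Nos3 the endothelial nitric oxide synthase. A single bout of exercise is a known stimulus of VEGF in muscle.

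The labelled tissue was checked against its markers. All 8 myofibre markers were detected in every library, with a summed level of 51692 to 67908 FPKM, and all 23 endothelial markers were detected in every library too. Summed over all genes, a library held 283575 to 329282 FPKM, and log2 values of any pair of libraries correlated with r between 0.966 and 0.984. FPKM carries no read count, and the methods give only an approximate number of reads common to all samples, so no counting error is given for single values.

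By their level per length, the 10 genes fell into a pair of abundant ligands and 8 lower genes. Over all 16 mice, Vegfa averaged 60.9 ± 5.92 FPKM (SD, n = 16), above 95.1% of the genes tested, and Vegfb averaged 51.8 ± 5.99 FPKM. Vegfa lay above Vegfb in 14 of 16 libraries. Below a gap with no overlap came Flt1 at 8.79 ± 1.25 FPKM and Kdr at 6.70 ± 1.55 FPKM. Flt1 exceeded Kdr in 14 of 16 libraries, and Kdr exceeded Tek, at 5.05 ± 0.661 FPKM, in 16 of 16. Thbs1 followed at 4.83 ± 1.95 FPKM and Angpt1 at 3.28 ± 0.898 FPKM. Tek and Thbs1 were not separated beyond their spread, since Tek was the higher in 10 of 16 libraries. Nos3 averaged 1.85 ± 0.286 FPKM and did not overlap with Angpt2, at 0.787 ± 0.297 FPKM. Apln was the lowest, at 0.180 ± 0.0971 FPKM, and lay under Angpt2 in 16 of 16 libraries.

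The genes also differed in how closely the mice of a group resembled each other. The median coefficient of variation within groups was 6.29% for Vegfa, 8.04% for Vegfb and 9.66% for Flt1, against 13.1% over all genes tested. It was 14.9% for Tek and for Nos3, 17.3% for Kdr, 18.9% for Angpt1 and 30.6% for Angpt2. The abundant ligands were thus the most evenly measured genes, and the low Angpt2 the least even among the 9 that were tested.

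Promoter sequences are shown for the 2 most abundant genes and for the least abundant one, to set the sequence beside the level. They come from RefSeq (GRCm38.p6), whose table matched 6 of the 10 genes (Vegfa, Vegfb, Kdr, Flt1, Tek and Apln). Each runs 5′ to 3′ on the minus strand over the 250 bases before the annotated start. Capitals mark matches, on either strand, to ACGTG or GCGTG (the core bound by hypoxia-inducible factors), TGACGTCA (CREB), TGANTCA (AP-1), AGGTCA (nuclear receptors) or GGGCGG (Sp1).
Vegfa, chr17:46032378-46032627: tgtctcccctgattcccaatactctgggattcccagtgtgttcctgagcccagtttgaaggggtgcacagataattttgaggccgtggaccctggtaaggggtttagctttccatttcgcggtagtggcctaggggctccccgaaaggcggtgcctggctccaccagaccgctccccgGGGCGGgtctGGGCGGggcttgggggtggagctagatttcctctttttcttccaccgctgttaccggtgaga
Vegfb, chr19:6987652-6987901: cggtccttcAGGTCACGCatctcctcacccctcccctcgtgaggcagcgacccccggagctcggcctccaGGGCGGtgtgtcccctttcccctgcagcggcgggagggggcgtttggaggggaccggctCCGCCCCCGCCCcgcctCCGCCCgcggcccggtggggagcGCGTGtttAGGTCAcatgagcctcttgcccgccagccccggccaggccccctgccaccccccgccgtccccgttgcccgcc
Apln, chrX:48034854-48035103: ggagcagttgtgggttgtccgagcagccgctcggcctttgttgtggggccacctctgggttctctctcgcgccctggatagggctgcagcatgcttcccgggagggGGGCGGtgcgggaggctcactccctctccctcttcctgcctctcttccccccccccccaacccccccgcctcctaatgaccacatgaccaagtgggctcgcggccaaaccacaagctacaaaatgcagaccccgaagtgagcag

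The table holds 2 promoters for Vegfa, of which the one at the 5′ boundary of the annotated gene is shown. This Vegfa window held 2 matches to GGGCGG and no match to the other 5 motifs. The Vegfb window held 4 matches to GGGCGG, 2 to GCGTG and 2 to AGGTCA, and at its 5′ end a match to AGGTCA shared bases with one to GCGTG. The Apln window held 1 match to GGGCGG. Among 32851 promoter windows of the same length, 32.7% held GGGCGG, 28.2% GCGTG and 14.0% AGGTCA. The GC content was 59.2% for Vegfa, 76.4% for Vegfb and 65.2% for Apln, against a median of 52.4% over all windows. The annotated starts of Kdr, Flt1 and Tek lay 617, 427 and 203 bases inside the boundary of the gene, so their windows fall wholly or mostly within the gene and are not shown. Of these, Flt1 held 1 match to TGACGTCA, a motif found in 1.55% of all windows, 1 to GCGTG and 3 to GGGCGG. Kdr held 2 matches to GCGTG and 2 to GGGCGG, and Tek held none of the 6 motifs.

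The first comparison asked whether a single bout of running changed these genes. On the log2 scale, the post groups were set against the pre groups within each diet and then averaged over both diets, with limma on log2(FPKM + 0.5) and Benjamini-Hochberg adjustment over all 11256 genes. A log2 fold change on this scale understates the change of low genes such as Angpt2. None of the 9 genes passed an adjusted p of 0.05, where 3.86% of all genes passed in the averaged contrast, 1.11% in CON and 0.542% in HFD. In the averaged contrast 7 of the 9 lay above 0, against 53.7% of all genes, with a median log2 fold change of 0.11 against 0.01. Among the 7, Tek, at 0.02, changed sign in 6 of 27 alternatives tried, down to -0.07. An unadjusted p under 0.05 was reached in the averaged contrast by 5 of the 9, against 18.5% of all genes. Of these 5, Vegfa, Vegfb, Angpt2 and Thbs1 were higher after running and Angpt1 was lower. The averaged contrast draws on the same libraries as the contrasts within each diet, so it is no separate evidence.

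**Figure D1:**
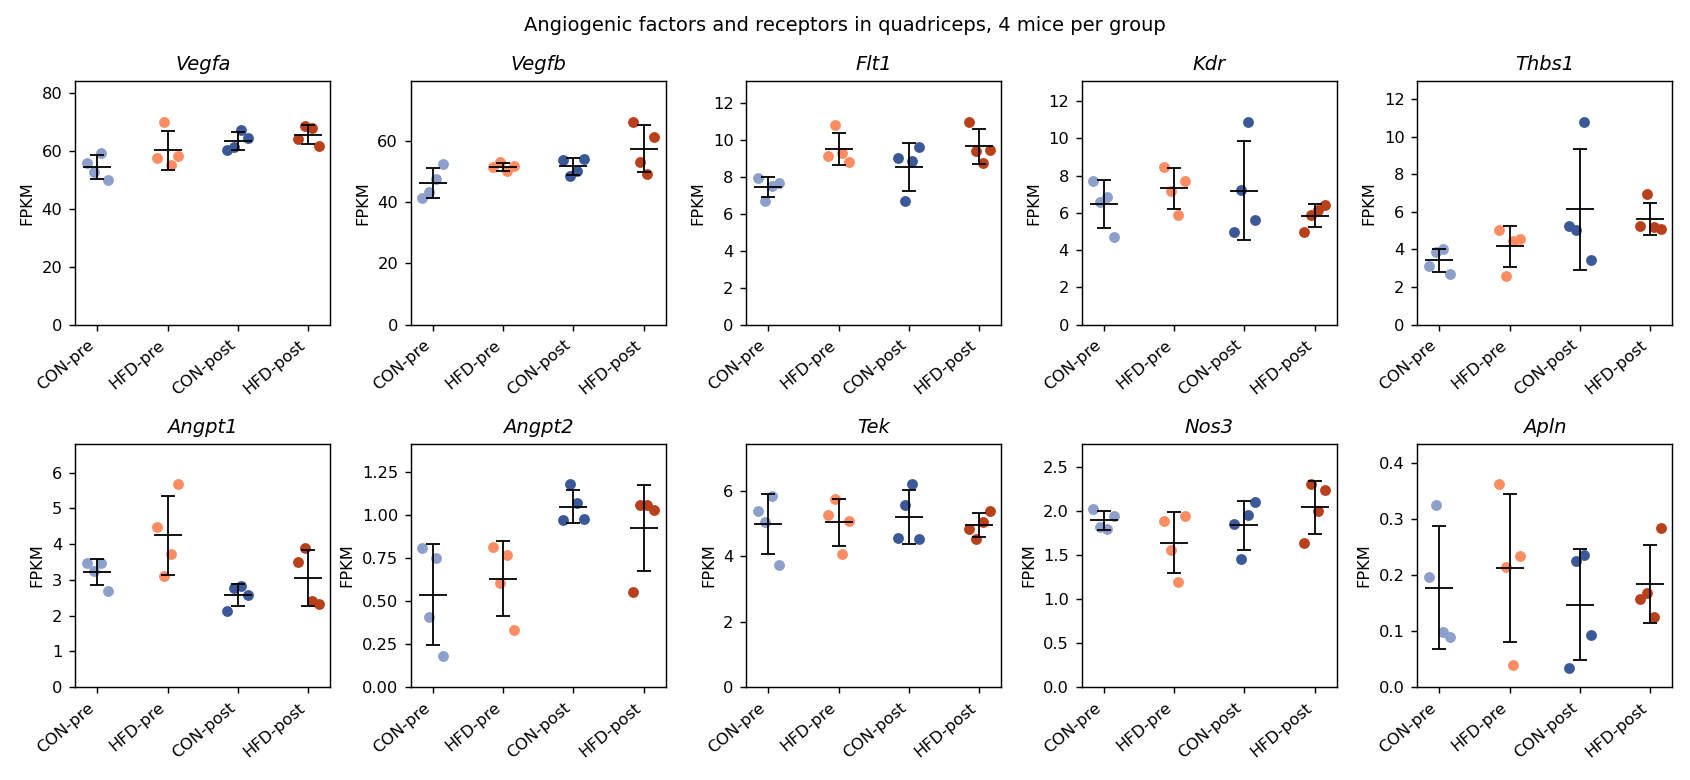
FPKM of each of the 10 genes by group (1 panel per gene, vertical axis in FPKM from 0). Points are single mice, with the mean and SD of each group of 4 beside them, and Angpt2 was above its highest pre value of 0.813 FPKM in 7 of 8 post mice.

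Vegfa, the principal VEGF ligand (chr17:46016993-46032377), measured 55.8, 52.8, 59.4 and 49.8 FPKM in the 4 CON-pre mice and 60.2, 61.5, 67.1 and 64.3 FPKM in the 4 CON-post mice. The CON groups did not overlap, and 3.29% of all genes lay higher without overlap in that contrast. The HFD-pre mice had 57.5, 70.1, 55.1 and 58.1 FPKM and the HFD-post mice 64.2, 68.7, 67.8 and 61.6 FPKM, where HFD-pre replicate 2 was the highest of all 16 mice, and 7 of 8 pre mice lay below every post mouse. Vegfa was therefore above the pre median in 8 of 8 post mice. The log2 fold change was 0.22 ± 0.08 (SE) in CON (adjusted p = 0.263), 0.13 ± 0.08 in HFD (adjusted p = 0.552) and 0.17 ± 0.06 averaged over both diets (adjusted p = 0.0975), a 1.13-fold difference. Its averaged call turned on 1 library: without HFD-pre replicate 2 the log2 fold change was 0.21 and the adjusted p 0.0309, within a range of 0.0309 to 0.335 over the alternatives tried. With quantile normalization the averaged value was 0.10 and the HFD value 0.05.

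Vegfb, a VEGF ligand that binds Flt1 but not Kdr and is linked to fatty acid handling (chr19:6982472-6987651), measured 41.3, 43.5, 47.7 and 52.6 FPKM in CON-pre and 53.9, 48.7, 50.2 and 54.2 FPKM in CON-post. In HFD-pre it was 51.5, 53.2, 50.1 and 51.8 FPKM and in HFD-post 66.4, 53.3, 49.2 and 61.4 FPKM. The groups overlapped in both diets, and 5 of 8 post mice exceeded the highest pre mouse. The averaged log2 fold change was 0.15 ± 0.06 (adjusted p = 0.209).

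The VEGF receptors had overlapping groups in both diets. Kdr (chr5:75932827-75979072) averaged 6.46 ± 1.27 FPKM in CON-pre and 7.18 ± 2.65 FPKM in CON-post (SD, n = 4), where CON-post replicate 3 had 10.9 FPKM and the other 3 had 4.98, 7.23 and 5.63 FPKM. In HFD it averaged 7.31 ± 1.08 FPKM before and 5.85 ± 0.627 FPKM after running. The log2 fold change was 0.10 ± 0.19 in CON and -0.29 ± 0.19 in HFD (adjusted p = 0.893 and 0.586). The sign of the CON value depended on single libraries, since it was -0.11 without CON-post replicate 3, -0.03 without CON-pre replicate 4 and 0.25 without CON-post replicate 1. Flt1 (chr5:147561604-147726438) averaged 7.44 ± 0.530 FPKM in CON-pre against 8.54 ± 1.28 FPKM in CON-post, and 9.52 ± 0.877 against 9.66 ± 0.977 FPKM in the HFD groups. Its averaged log2 fold change after running was 0.10, with a 95% interval of -0.06 to 0.26, and 0.06 with upper-quartile or quantile scaling.

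Angpt2 (chr8:18690263-18741562) gave the lowest adjusted p of the 9 genes for running. The CON-pre mice had 0.807, 0.408, 0.754 and 0.184 FPKM and the CON-post mice 0.973, 1.18, 1.07 and 0.980 FPKM, with no overlap. The HFD-pre mice had 0.813, 0.605, 0.771 and 0.335 FPKM and the HFD-post mice 0.555, 1.06, 1.06 and 1.03 FPKM, so that HFD-post replicate 1 alone among the 8 post mice lay within the pre range. The log2 fold change was 0.63 ± 0.20 in CON (adjusted p = 0.199), 0.34 ± 0.20 in HFD (adjusted p = 0.550) and 0.48 ± 0.14 averaged (adjusted p = 0.0767, 95% interval 0.18 to 0.79). Without HFD-post replicate 1 the averaged value was 0.55 with an adjusted p of 0.0433, the lowest of a range of 0.0433 to 0.197 over the alternatives. The HFD value was 0.20 without HFD-pre replicate 4, and with a pseudocount of 0.1 the averaged value was 0.75, which was not called either.

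Angpt1 (chr15:42424667-42676977), the opposing ligand of the same receptor, lay the other way. It measured 3.48, 3.26, 3.46 and 2.69 FPKM in CON-pre and 2.14, 2.78, 2.83 and 2.58 FPKM in CON-post. In HFD-pre it was 4.48, 3.12, 3.72 and 5.67 FPKM and in HFD-post 3.51, 3.90, 2.42 and 2.34 FPKM. The groups overlapped in both diets, and 4 of 8 post mice lay under the lowest pre mouse. The log2 fold change was -0.27 ± 0.17 in CON (adjusted p = 0.585), -0.42 ± 0.17 in HFD (adjusted p = 0.334) and -0.35 ± 0.12 averaged (adjusted p = 0.120). With the endothelial marker score as a covariate, the CON value was -0.47 and the averaged value -0.52 with an adjusted p of 0.0135, the lowest of a range of 0.0135 to 0.288.

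Tek (chr4:94739086-94874976), the receptor that both angiopoietins bind, averaged 4.99 ± 0.906 FPKM in CON-pre, 5.21 ± 0.821 in CON-post, 5.04 ± 0.707 in HFD-pre and 4.95 ± 0.368 in HFD-post (SD, n = 4). The averaged log2 fold change was 0.02, with a 95% interval of -0.17 to 0.22 and an adjusted p of 0.925. The values of its 2 ligands thus lay on opposite sides of 0 while that of the receptor lay near 0.

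Within each library, the level of Angpt2 was 0.232, 0.125, 0.218 and 0.0684 times that of Angpt1 in CON-pre and 0.181, 0.194, 0.207 and 0.0591 times in HFD-pre. It was 0.454, 0.426, 0.378 and 0.380 times in CON-post and 0.158, 0.272, 0.438 and 0.441 times in HFD-post. The median ratio was 0.188 in the 8 pre mice and 0.403 in the 8 post mice, and 7 of 8 post mice lay above the highest pre mouse. HFD-post replicate 1, with 0.158, was the exception. This ratio combines values already given above and was not tested. The ratio of Flt1 to Kdr had a median of 1.06 in CON-pre, 1.33 in HFD-pre, 1.32 in CON-post and 1.54 in HFD-post, with overlapping groups. The ratio of Vegfa to Thbs1 had medians of 16.3, 12.6, 11.9 and 12.1 in the same order of groups.

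**Figure D2:**
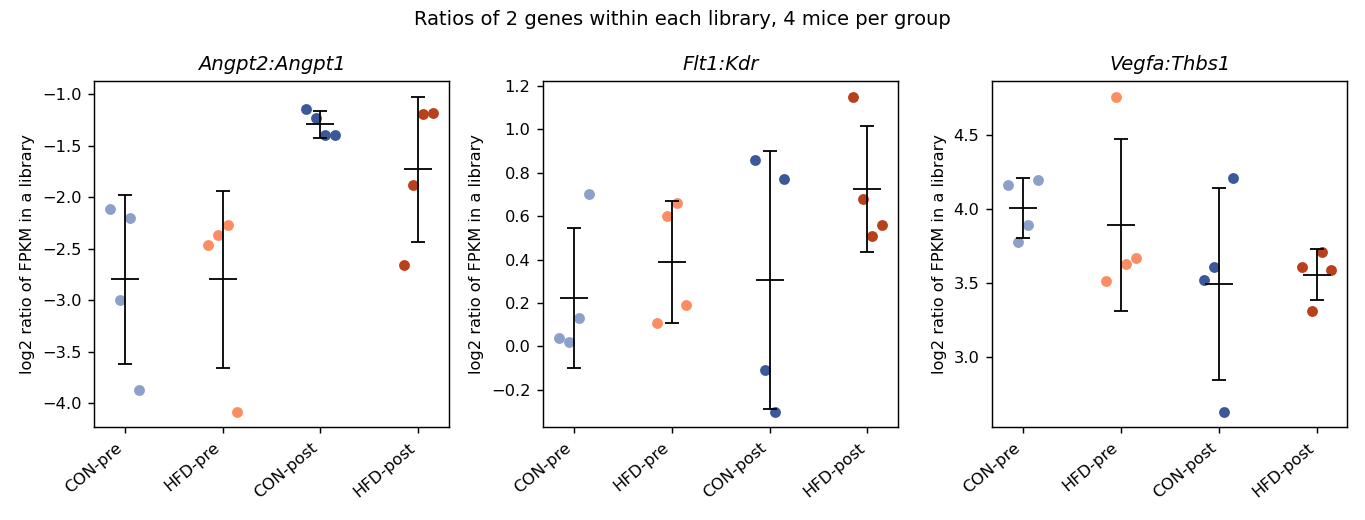
Log2 ratios of FPKM within each library for Angpt2 to Angpt1, Flt1 to Kdr and Vegfa to Thbs1 (vertical axes), by group, where points are single mice and bars the mean and SD of 4 mice. The mean log2 ratio of Angpt2 to Angpt1 was -2.79 in CON-pre, -2.80 in HFD-pre, -1.29 in CON-post and -1.73 in HFD-post.

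Thbs1 (chr2:118111876-118127133) had an averaged log2 fold change of 0.54 ± 0.18, with an adjusted p of 0.106. It measured 3.13, 3.85, 4.01 and 2.70 FPKM in CON-pre and 5.23, 5.03, 10.8 and 3.46 FPKM in CON-post, where replicate 3 lay far above the other 3 and replicate 4 within the pre range. In HFD-pre it was 5.04, 2.58, 4.44 and 4.56 FPKM and in HFD-post 5.26, 6.93, 5.18 and 5.11 FPKM, so that every post mouse lay above every pre mouse, as for 4.72% of all genes in that contrast. The log2 fold change was 0.66 ± 0.25 in CON (adjusted p = 0.299) and 0.42 ± 0.25 in HFD (adjusted p = 0.550). The CON value was 0.37 without CON-post replicate 3, the mouse at 10.8 FPKM, and the HFD value 0.23 without HFD-pre replicate 2, the mouse at 2.58 FPKM. The averaged value was 0.64 with an adjusted p of 0.0428 without CON-post replicate 4, within a range of 0.0428 to 0.333 over the alternatives.

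Nos3 (chr5:24364816-24384474) averaged 1.89 ± 0.110 FPKM in CON-pre, 1.84 ± 0.278 in CON-post, 1.64 ± 0.347 in HFD-pre and 2.04 ± 0.301 in HFD-post (SD, n = 4). Its log2 fold change was -0.04 ± 0.13 in CON (adjusted p = 0.947) and 0.25 ± 0.13 in HFD (adjusted p = 0.464), and the groups overlapped in both diets. The HFD value was 0.14 without HFD-pre replicate 3, the lowest of all 16 mice. Apln (chrX:48025146-48034853) ranged from 0.0346 to 0.362 FPKM over the 16 mice, and all 4 groups overlapped. In a fit of all 23970 symbols with no filter, its log2 fold changes lay between -0.07 and 0.09 over the contrasts, with an adjusted p of 1.00 in each. The SE of its contrasts between 2 groups was 0.15 on this scale.

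The second comparison asked whether the diet changed these genes. None of the 9 passed an adjusted p of 0.05 in HFD-pre against CON-pre (0.346% of all genes did), in HFD-post against CON-post (0.151%), or in HFD against CON averaged over pre and post (0.959%). In HFD-pre against CON-pre, 8 of the 9 had a log2 fold change above 0, against 39.6% of all genes, and the median of the 9 was 0.16 against -0.03 over all genes. Among the 8, Angpt2 turned to -0.04 without CON-pre replicate 4, and Tek, at 0.02, changed sign in 5 of 28 alternatives, down to -0.10. In HFD-post against CON-post, 5 of the 9 lay above 0, against 51.2% of all genes. The 9 genes share libraries and some share cells, so these counts describe them and are not a test.

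Flt1 gave the lowest adjusted p for diet. It measured 7.93, 6.69, 7.49 and 7.65 FPKM in CON-pre and 9.16, 10.8, 9.32 and 8.81 FPKM in HFD-pre. Each HFD-pre mouse lay above every CON-pre mouse, as for 1.68% of all genes. After running, CON-post had 9.01, 6.69, 8.86 and 9.61 FPKM and HFD-post 11.0, 9.41, 8.73 and 9.47 FPKM, and these groups overlapped. The log2 fold change was 0.33 ± 0.11 in the pre mice (adjusted p = 0.312), 0.17 ± 0.11 in the post mice (adjusted p = 0.913) and 0.25 ± 0.07 averaged (adjusted p = 0.159), a 1.19-fold difference. The post value was 0.07 without CON-post replicate 2 and 0.11 without HFD-post replicate 1. Kdr, the partner receptor, had an averaged value of -0.02, with a 95% interval of -0.31 to 0.26.

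Vegfb and Angpt1 were the other genes with an unadjusted p under 0.05 for the averaged diet contrast, so 3 of the 9 had one, against 10.4% of all genes. Vegfb averaged 46.3 ± 5.01 FPKM in CON-pre, 51.6 ± 1.26 in HFD-pre, 51.7 ± 2.72 in CON-post and 57.6 ± 7.76 in HFD-post, and its averaged log2 fold change for diet was 0.15 ± 0.06 (adjusted p = 0.393). Angpt1 averaged 3.22 ± 0.370, 4.25 ± 1.10, 2.58 ± 0.314 and 3.04 ± 0.783 FPKM in the same order of groups, with an averaged diet value of 0.25 ± 0.12 (adjusted p = 0.463). With the endothelial marker score as a covariate, that value was 0.16. The remaining 6 genes had averaged diet values between -0.03 (Nos3) and 0.11 (Thbs1).

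**Figure D3:**
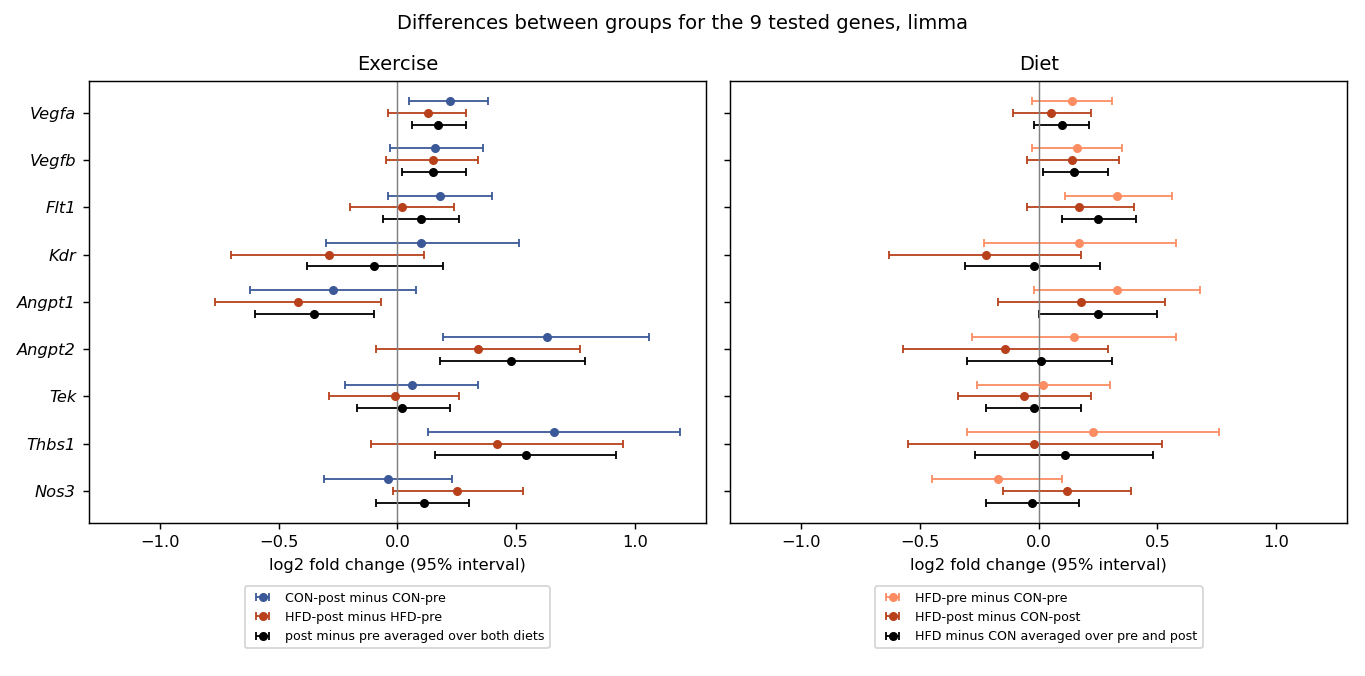
Log2 fold change of the 9 tested genes in each contrast, for running (left) and diet (right), with 95% intervals from limma on log2(FPKM + 0.5). The averaged value after running was 0.48 for Angpt2, 0.54 for Thbs1 and -0.35 for Angpt1, and no gene passed an adjusted p of 0.05.

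The last comparison asked whether the response to running differed between the diets. The interaction of diet and exercise called none of the 9 genes and 0 of all 11256 genes by limma (0%), and 0 of the 9 had an unadjusted p under 0.05, against 3.16% of all genes. The estimate was below 0, a lower log2 fold change in HFD, for 8 of the 9, and Nos3 was the exception. A lower value is not always a weaker response. Angpt1 lay further below 0 in HFD (-0.42) than in CON (-0.27), and Kdr lay at -0.29 in HFD and 0.10 in CON. The interaction of Thbs1, -0.24, turned to 0.05 without CON-post replicate 3. That of Vegfb, -0.02, changed sign in 6 of 27 alternatives and that of Tek, -0.08, in 2. Over all genes, 60.3% lay above 0. The pre groups enter both this contrast and, with the opposite sign, HFD-pre against CON-pre, so the signs here are no separate evidence. The intervals were wide. For Angpt2 the interaction was -0.29 (95% interval -0.90 to 0.32), for Flt1 -0.16 (-0.48 to 0.16), for Kdr -0.40 (-0.97 to 0.18) and for Vegfa -0.09 (-0.32 to 0.15). Single libraries moved these estimates: Angpt2 was at -0.10 without CON-pre replicate 4, Kdr at -0.19 without CON-post replicate 3, Vegfa at -0.01 without HFD-pre replicate 2, and Flt1 between -0.27 and -0.10 over the alternatives.

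Other genes of these pathways were counted in the same fit. Of 6 other VEGF ligands and receptors, 13 tested genes of the nitric oxide pathway and Aplnr, the apelin receptor, none passed in any contrast, and Apela, the other ligand of that receptor, was listed at 0 in every library. Among 9 regulators of Vegfa, 3 rose in the averaged running contrast, where 3.86% of all genes were called. All 9 lay above 0, against 53.7% of all genes. The list was not split into genes that raise and genes that restrain Vegfa, so these counts give no direction for Vegfa. Ppargc1a, a transcriptional coactivator of oxidative metabolism that is known to drive Vegfa in muscle, lay at 6.28 to 7.11 FPKM in CON-pre and 18.8 to 35.1 in CON-post, and at 4.18 to 4.90 in HFD-pre and 14.5 to 26.5 in HFD-post. Its averaged log2 fold change was 2.04 (adjusted p = 2.63e-07). The other 2 were Epas1, a hypoxia-inducible factor (0.22, adjusted p = 0.0304), and Egln3, an oxygen sensor (0.55, adjusted p = 0.0424), which passed in 15 and 11 of 27 alternatives.

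Among 16 tested angiogenic growth factors outside the VEGF and angiopoietin families, 5 rose after running in the averaged contrast and none fell. Of all genes, 3.86% were called there. Cyr61, a matrix-associated angiogenic protein, averaged 6.92 ± 1.06 FPKM in CON-pre and 27.5 ± 9.04 in CON-post, and 9.07 ± 1.67 in HFD-pre and 23.2 ± 1.29 in HFD-post (log2 fold change 1.60, adjusted p = 2.28e-06). Hbegf, a ligand of the EGF receptor, averaged 4.05 ± 0.907 and 13.5 ± 2.45 FPKM in CON and 4.81 ± 0.386 and 14.3 ± 4.06 FPKM in HFD, before and after running (1.54, adjusted p = 2.28e-06). Both passed within each diet and under every alternative tried. Fgf1, a fibroblast growth factor, averaged 6.48 ± 1.57 FPKM in CON-pre and 10.6 ± 1.76 in CON-post (0.68, adjusted p = 0.0303), and passed there in 18 of 28 alternatives. In HFD it averaged 9.37 ± 0.949 FPKM before and 10.9 ± 1.38 after running and was not called. Its averaged value was 0.45 (adjusted p = 0.0250), called in 20 of 27 alternatives. Met, the receptor of hepatocyte growth factor, had 0.41 (adjusted p = 0.00591), and Edn1, the vasoconstrictor endothelin, had 0.43 (adjusted p = 0.0181).

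Of 10 other antiangiogenic genes, Timp3, a metalloproteinase inhibitor that also blocks VEGF from Kdr, rose by 0.45 (adjusted p = 0.00387) and Cd36, a fatty acid transporter and receptor of thrombospondin, by 0.35 (adjusted p = 0.0256) in the averaged running contrast. Cd36 also rose with HFD, from 65.4 ± 10.1 FPKM in CON-pre to 102 ± 17.2 in HFD-pre (log2 fold change 0.64, adjusted p = 0.0229). In the averaged diet contrast, Cd36 (0.55, adjusted p = 0.00196) and Epas1 (0.27, adjusted p = 0.0238) were the only genes called in the lists of angiogenic genes. Cd36 passed in 19 of 27 alternatives for running, in 21 of 28 for HFD-pre against CON-pre and in 27 of 27 for the averaged diet contrast, where Epas1 passed in 19 of 27. Of 5 tested angiopoietin-related and Tie genes, Angptl4, a lipase inhibitor, rose after running by 0.70 (adjusted p = 0.0260) and passed in 21 of 27 alternatives. Of 7 Notch and tip cell genes, Robo4, a guidance receptor of endothelial cells, rose by 0.29 (adjusted p = 0.0216). Beside these lists, 3.86% of all genes were called in the averaged running contrast.

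**Figure D4:**
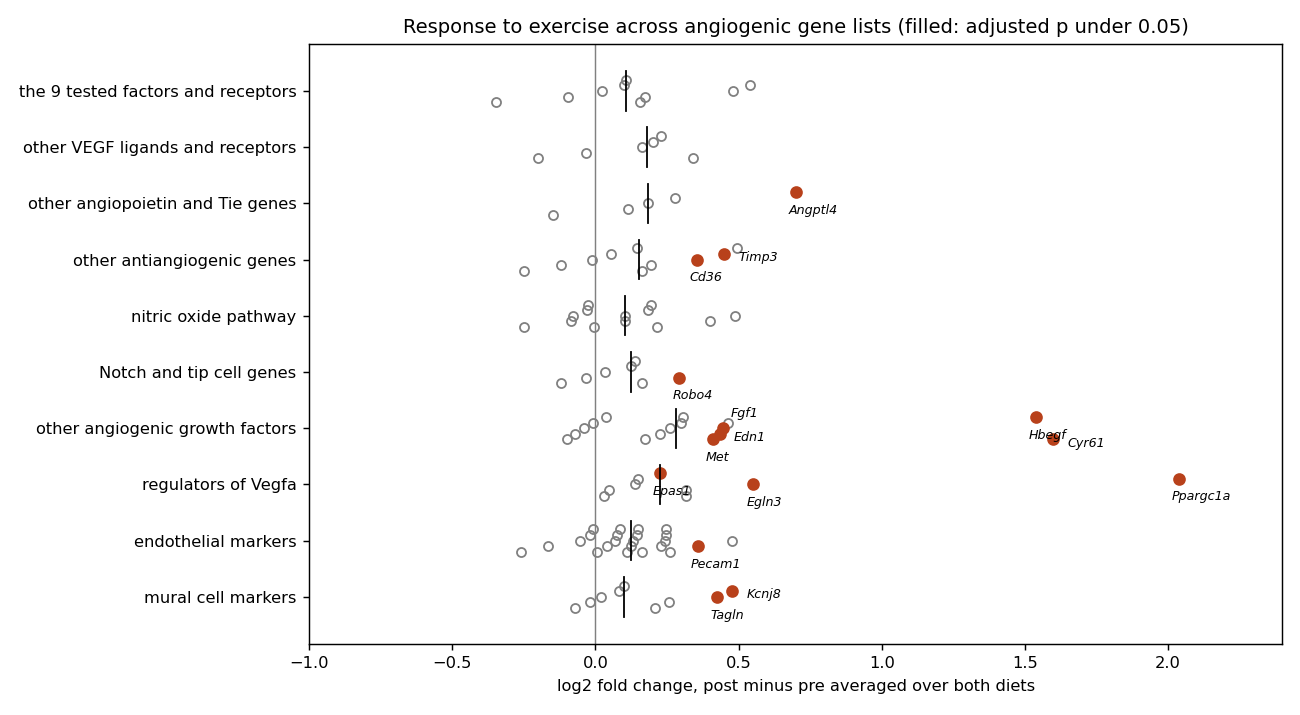
Averaged log2 fold change after running (horizontal axis) for the tested genes of each list (1 row per list, 1 point per gene, vertical ticks at list medians, filled points with an adjusted p under 0.05). None of the 9 genes described here is filled, and Ppargc1a lies at 2.04, Cyr61 at 1.60 and Hbegf at 1.54.

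Markers of endothelial and other cells were set beside these values. In whole muscle, more cells of a type and more RNA per cell cannot be told apart. The summed level of the 23 endothelial markers was 178 to 208 FPKM in CON-pre, 194 to 228 in HFD-pre, 201 to 237 in CON-post and 204 to 242 in HFD-post, and none of the 23 was at 0 in any library. In the averaged running contrast, 18 of the 23 lay above 0, with a median of 0.12 against 0.01 over all genes. Of the 23, 1 passed, where 3.86% of all genes did: Pecam1, an adhesion protein of endothelial cells, at 0.36 (adjusted p = 0.00141). Of 9 mural cell markers, 7 lay above 0 and 2 below, with a median of 0.10. Kcnj8, a potassium channel of pericytes (0.48, adjusted p = 0.00340), and Tagln, a smooth muscle protein (0.43, adjusted p = 0.0215), passed. Tagln did so in 25 of 27 alternatives. None of 7 fibroblast, 8 macrophage, 5 tested platelet and red cell, 6 adipocyte or 8 myofibre markers passed for running. Of the 5 platelet and red cell markers, 4 lay below 0 in CON (median -0.19) and 5 above 0 in HFD (median 0.42). Of the 6 adipocyte markers, 5 lay above 0 in CON (median 0.10), 6 in HFD (median 0.48) and 6 in the averaged contrast (median 0.27). The part of these cells in the values of the 9 genes after running was not tested beyond the endothelial covariate and slope given here. The covariate was fitted for all 9 genes, and its values are printed for Angpt1 only.

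Each of the 9 genes was also set, within groups, against the endothelial marker score (the mean of the centred log2 values of the 23 markers in a library). None of the 9 slopes passed an adjusted p of 0.05, against 0.970% of 11233 genes. The slope, in log2 units per log2 unit of the score, was 1.57 ± 0.59 for Kdr (adjusted p = 0.171) and 1.50 ± 0.48 for Angpt1 (adjusted p = 0.121). It was 0.83 ± 0.44 for Tek (adjusted p = 0.322), 0.31 ± 0.28 for Vegfa (adjusted p = 0.563), 0.09 ± 0.75 for Angpt2 (adjusted p = 0.962) and -0.12 ± 0.39 for Flt1 (adjusted p = 0.891). Both the slope of Thbs1, 1.44 ± 0.86, and that of Kdr leaned on CON-post replicate 3. Without it both were at their lowest, 0.50 for Thbs1 and 1.00 for Kdr. Leaving out single libraries gave slopes of -0.15 to 0.74 for Angpt2, -0.34 to 0.12 for Flt1 and 0.19 to 0.45 for Vegfa. The slope was added after the data had been seen.

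With diet, the adipocyte markers moved apart. Lep, which encodes leptin, rose by 2.34 and Cfd, which encodes adipsin, fell by 1.97 on the log2 scale in HFD-pre against CON-pre, and the summed level of the 6 adipocyte markers was 123 to 197 FPKM in CON-pre, 63.6 to 76.6 in HFD-pre, 106 to 198 in CON-post and 57.4 to 164 in HFD-post, with none of the 6 at 0 in any library. The lower sum in HFD-pre came from Cfd, which averaged 105 ± 24.5 FPKM in CON-pre and 27.4 ± 9.88 in HFD-pre, while Adipoq, which encodes adiponectin, averaged 17.4 ± 3.05 and 18.3 ± 2.92 FPKM and the median of the 6 log2 fold changes was -0.01. Their part in the Flt1, Vegfb and Angpt1 values given for diet was not tested. The endothelial, mural, fibroblast, macrophage, myofibre and platelet and red cell lists had no called gene for diet. In the averaged diet contrast, 8 of 9 mural markers lay above 0 (median 0.12) and 8 of 8 macrophage markers below 0 (median -0.16). Of 5 tested platelet and red cell markers, 5 lay below 0 in HFD-pre against CON-pre (median -0.48). In HFD-post against CON-post, 4 of those 5 lay above 0 (median 0.30). The part of these shifts in the values of the 9 genes was not tested. The summed level of the 8 myofibre markers was 61957 to 67908 FPKM in CON-pre, 55732 to 60838 in HFD-pre, 56734 to 64460 in CON-post and 51692 to 59684 in HFD-post, so the pre groups did not overlap. In the averaged diet contrast, 5 of the 8 were lower and 1 was higher at an unadjusted p under 0.05, where 6.54% of all genes were lower and 3.89% higher, and the median of the list was -0.14. Mb, which encodes myoglobin, averaged 1265 ± 245 FPKM in CON-pre and 1675 ± 252 in HFD-pre. FPKM is a relative measure, and the part of this difference in the values of the 9 genes for diet was not tested. In the averaged diet contrast, 18 of the 23 endothelial markers lay above 0, with a median of 0.08 against -0.02 over all genes.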

How the data were processed

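Quadriceps RNA of 16 mice was sequenced in 4 groups of 4. According to the methods and labels, the authors prepared stranded polyA libraries, checked reads with FastQC, aligned them with TopHat to mm9 and estimated expression with Cufflinks, in versions not given in the sources used here. The deposited values are FPKM, scaled by the authors for transcript length and library size. FPKM carries no depth, and low values gave no usable read steps in 10 of 15 libraries set against CON-pre replicate 1, so whole reads were not recovered and no count test was run. The authors' own comparisons and the other assays were not used. Positions follow RefSeq GRCm38.p6, since 692 of 692 loci in the study's supplementary table overlapped the gene of the same symbol there, against 113 in mm9.

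From 24487 entries, 27 with names turned into numbers (0.0771% of FPKM) were left out, and 260 symbols in several entries were summed. Genes averaging 0.5 FPKM or more were tested on log2(FPKM + 0.5) with limma 3.58.1 (R 4.3.3), using a trend of variance on level, 1 fit of the 4 groups, 7 contrasts and Benjamini-Hochberg adjustment over all genes tested. A gene was called at an adjusted p under 0.05. The code was tested on simulated data. Alternatives comprised pseudocounts of 0.1 and 1, no filter, a mean of 1 FPKM as the filter, scaling by quantiles, by upper quartiles or by the median of ratios, fits of the 2 groups compared, no trend, array weights, a replicate block, the endothelial score as a covariate, and each library left out. All 10 genes are named, and of the other lists the called genes, at most 4 per list and contrast by adjusted p. The members, gene lists, tests and motifs were chosen with earlier results of these data known. Symbols are as in the table (Cyr61 is also called Ccn1). Other software was matplotlib 3.10.9, scipy 1.17.1, pandas 2.3.3 and numpy 2.4.6 in Python 3.11.15.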

Additional observations from a re-analysis of the deposited data

Results flagged for a closer look

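In 2 of the 40 gene and group combinations of these 10 genes, 1 mouse stood apart from the other 3 by Dixon's criterion for 4 samples (the gap to the nearest mouse over the range of the group), about as many as the 1 in 20 that chance gives. Angpt2 was 0.555 FPKM in HFD-post replicate 1, against 1.03 to 1.06 FPKM in the other 3 mice, and the averaged running value was 0.55 without this mouse and 0.48 with it. Thbs1 was 6.93 FPKM in HFD-post replicate 2, against 5.11 to 5.26 FPKM in the other 3.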

How the results depend on the processing

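The count of called genes among the 9 was 0 in each of the 7 contrasts and remained 0 under the alternatives tried, except in the averaged running contrast. There it was 1 with the endothelial score as a covariate (Angpt1) and ranged from 0 to 1 when single libraries were left out: 1 without HFD-pre replicate 2 (Vegfa), without CON-post replicate 4 (Thbs1) and without HFD-post replicate 1 (Angpt2). Of 1730 values of these genes under alternatives, 1726 stayed uncalled and 4 became called. With no call to begin with, none could be lost. Uncalled values changed sign in 18 of 63 pairs of gene and contrast. For the genes of the other lists, 805 of 932 values kept their call, 127 lost it and 0 reversed. The replicate block called 0 of the 9 genes in every contrast. Same-numbered libraries correlated between -0.22 and 0.21 in their deviations from group means, and libraries of different numbers over the same range. Of the 16 libraries, 6 correlated best with their own number. This gave no clear sign of pairing by number but cannot exclude it. Angpt2 could not be tested at a mean of at least 1 FPKM, and a fit of 2 groups has no value for the interaction and the averaged contrasts. The depth of single libraries could not be recovered, so no counting error is set beside any value.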
